A study of Mus musculus with 6 samples.

Results

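Uchl1, Bc1, Agfg2, Flywch1 and Lrrc17 are 5 of the 10889 genes that could be tested, and of the 31053 genes listed, in bulk RNA sequencing of the cerebellum of WT and KIKO mice. They were chosen by their normalized levels, which were higher in KIKO replicates 1 and 3 than in both WT libraries. That order was shared by 2122 of the genes tested (19.5%), and the 5 genes were those among them that had an adjusted p under 0.05 when KIKO replicate 2 was left out (5 of 10373 genes, 0.0482%). The differences between genotypes given here for these genes are therefore a description of the choice, without a test. All 5 passed the filter on low counts.

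KIKO (knock-in knock-out) mice are the disease model of the study, and the WT mice were their littermates with the C57BL/6 background. The text of the study describes mice of 6 mo of age and the magnetic sorting of CD45+/CD11b+ cells, a gate that holds microglia and macrophages. The sample labels state cerebellum, genotype and polyA RNA, and leave out age, sex and sorting. Libraries of 2 WT and 3 KIKO samples were analysed, and the sample labelled WT replicate 3 was not analysed here. Nothing in the labels says that the samples came from separate mice, so spreads and p-values refer to these samples. The text of the study gives more mice per group than there are samples, and whether mice were pooled is not given in the sources used here.

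The libraries held between 1013107 and 1351339 counts, and 3 counts corresponded to between 2.22 and 2.96 normalized CPM (counts scaled to a common library size with TMM factors). KIKO replicate 2 stood apart, with r of log2 CPM between 0.672 and 0.747 with the other libraries over the genes tested, against 0.884 to 0.931 among the others. The fold changes are therefore given with and without it. Microglial markers summed to between 4752 and 12109 CPM, the highest in KIKO replicate 2. Markers that a gate on CD45+/CD11b+ cells would remove were present in every library, among them those of neurons, oligodendrocytes and choroid plexus, and none of the 11 marker lists had a gene at 0 in all libraries. In such a mixture, fewer cells of a type and less RNA per cell cannot be told apart.

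The 5 genes have unlike roles. Uchl1 encodes ubiquitin C-terminal hydrolase L1, also known as PGP9.5, an abundant deubiquitinating enzyme of neurons that frees and holds ubiquitin. Bc1 is a short non-coding RNA made by RNA polymerase III in rodent neurons, where it is carried into dendrites and represses the start of translation. Agfg2 encodes a protein with an ArfGAP domain and FG repeats, related to Agfg1, which acts in vesicle traffic. Flywch1 encodes a nuclear zinc-finger protein that binds beta-catenin, and Lrrc17 a secreted leucine-rich repeat protein known as an inhibitor of osteoclast formation.

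Uchl1 (ENSMUSG00000029223, chr5:66676091-66687234 on the plus strand of GRCm38, 9 merged exons) had 47 and 49 counts in WT replicates 1 and 2, and 164, 104 and 136 counts in KIKO replicates 1, 2 and 3. These were 46.8 and 37.2 CPM in WT and 129, 80.4 and 138 CPM in KIKO libraries. All 3 KIKO values lay above both WT values, and KIKO replicate 2 lay between the groups. Its exact 95% Poisson interval, from 65.7 to 97.4 CPM, overlapped neither the interval of WT replicate 1, which ended at 62.3, nor that of KIKO replicate 1, which began at 110.3. The WT libraries did not differ beyond their intervals, nor did KIKO replicates 1 and 3. Poisson intervals cover counting error only. Whether reads carried molecular identifiers is not given in the sources used here, so they may not be independent molecules. The mean was 42 ± 6.83 CPM (SD, n = 2) in WT and 116 ± 31.1 CPM (SD, n = 3) in KIKO libraries. The fitted log2 fold change was 1.46 (SE 0.42), and 1.67 (SE 0.31) without KIKO replicate 2.

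Flywch1 (ENSMUSG00000040097, chr17:23752793-23771602 on the minus strand, 9 merged exons) had 242 and 157 counts in WT and 698, 342 and 511 counts in KIKO replicates 1 to 3. Its level was 241 and 119 CPM in WT, and 550.5, 264 and 518.5 CPM in KIKO libraries. KIKO replicate 2 lay above both WT libraries here as well, but its Poisson interval, from 237 to 294 CPM, overlapped that of WT replicate 1, from 212 to 273 CPM. The WT libraries differed by a ratio of 2.02, the widest among the 5 genes, whereas KIKO replicates 1 and 3 differed by a ratio of 1.06. The mean was 180.1 ± 86.3 CPM (SD, n = 2) in WT and 444 ± 157 CPM (SD, n = 3) in KIKO libraries. The fitted log2 fold change was 1.30 (SE 0.50), and 1.57 (SE 0.29) without KIKO replicate 2.

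Agfg2 (ENSMUSG00000029722, chr5:137650463-137684726 on the minus strand, 13 merged exons) had the fewest counts in WT, 19 and 34, against 118, 33 and 89 in KIKO replicates 1 to 3. In CPM, it stood at 18.9 and 25.8 in WT and at 93.1, 25.5 and 90.3 in KIKO libraries. KIKO replicate 2 fell within the range of WT, just under WT replicate 2, and the intervals of both WT libraries and KIKO replicate 2 overlapped. KIKO replicates 1 and 3 lay within a ratio of 1.03 of each other and at 4.1 times the WT mean, the highest such ratio of the 5 genes. The mean was 22.4 ± 4.85 CPM (SD, n = 2) in WT and 69.6 ± 38.2 CPM (SD, n = 3) in KIKO libraries. The fitted log2 fold change was 1.63 (SE 0.63), and 2.01 (SE 0.36) without KIKO replicate 2.

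Bc1 (ENSMUSG00000115783, chr7:144914470-144914637 on the plus strand, 1 exon) had 62 and 55 counts in WT and 226, 36 and 197 counts in KIKO replicates 1 to 3. Its level was 61.8 and 41.7 CPM in WT, and 178, 27.8 and 199.9 CPM in KIKO libraries. KIKO replicate 2 held the lowest value of all 5 libraries, at 0.538 times the WT mean and 0.156 times KIKO replicate 1. Its interval, from 19.5 to 38.5 CPM, overlapped that of WT replicate 2, from 31.4 to 54.3 CPM, and not that of WT replicate 1, which began at 47.4 CPM. The mean was 51.7 ± 14.2 CPM (SD, n = 2) in WT and 135 ± 93.7 CPM (SD, n = 3) in KIKO libraries. The fitted log2 fold change was 1.39 (SE 0.75), and 1.87 (SE 0.30) without KIKO replicate 2.

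Lrrc17 (ENSMUSG00000039883, chr5:21543559-21575904 on the plus strand, 5 merged exons) had 399 and 278 counts in WT and 905, 203 and 1086 counts in KIKO replicates 1 to 3. In CPM, it stood at 397 and 211 in WT and at 714, 157 and 1102 in KIKO libraries. The order of the libraries was that of Bc1, with KIKO replicate 3 highest and KIKO replicate 2 lowest. The interval of KIKO replicate 2, from 136 to 180 CPM, lay under that of WT replicate 2, which began at 187 CPM. KIKO replicates 1 and 3 differed by a ratio of 1.54, and their intervals, ending at 762 and beginning at 1037 CPM, did not overlap. The mean was 304 ± 132 CPM (SD, n = 2) in WT and 657.5 ± 475 CPM (SD, n = 3) in KIKO libraries. The fitted log2 fold change was 1.11 (SE 0.74), and 1.58 (SE 0.29) without KIKO replicate 2.

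**Figure D1:**
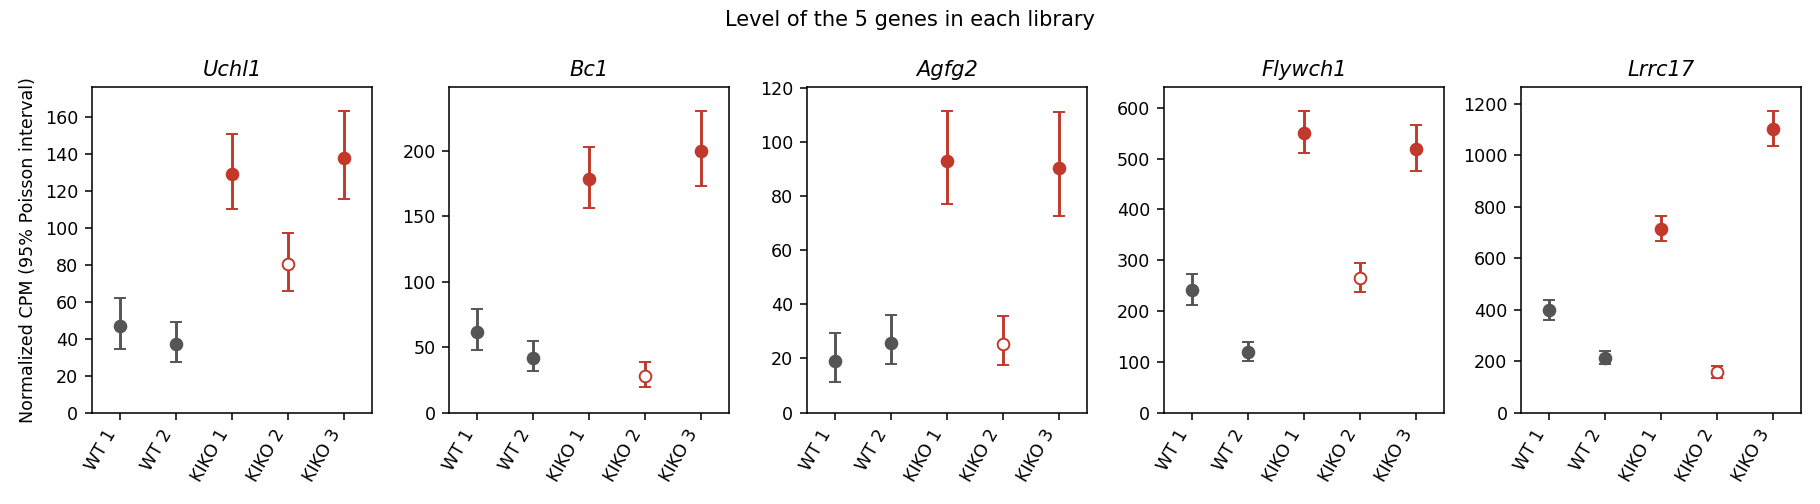
Level of each of the 5 genes (panels, y axis from 0 in normalized CPM) in the 2 WT libraries (grey) and 3 KIKO libraries (red). Bars are exact 95% Poisson intervals and the open circle is KIKO replicate 2, which lies above both WT libraries for Uchl1 and Flywch1, between them for Agfg2 and under them for Bc1 and Lrrc17.

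KIKO replicate 2 is the KIKO library that the choice did not use, although the choice did use the WT libraries. It lay above both WT libraries for 2 of the 5 genes, Uchl1 and Flywch1, against 4335 of all genes tested (39.8%), and for 3 of the 5 with RLE factors (40.6% of all genes) or library size alone (43.6%), when Agfg2 joined them. It lay under both for Bc1 and Lrrc17, against 4630 of all genes tested (42.5%). Among the 2122 genes with KIKO replicates 1 and 3 above both WT libraries, it lay above both for 893 (42.1%) and under both for 922 (43.4%). The 893 genes whose 3 KIKO values all lay above both WT values were 8.2% of the genes tested. The share among the 5 genes was thus near that of other genes. As 1 library against 2 cannot pass a threshold, this order was not tested.

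**Figure D2:**
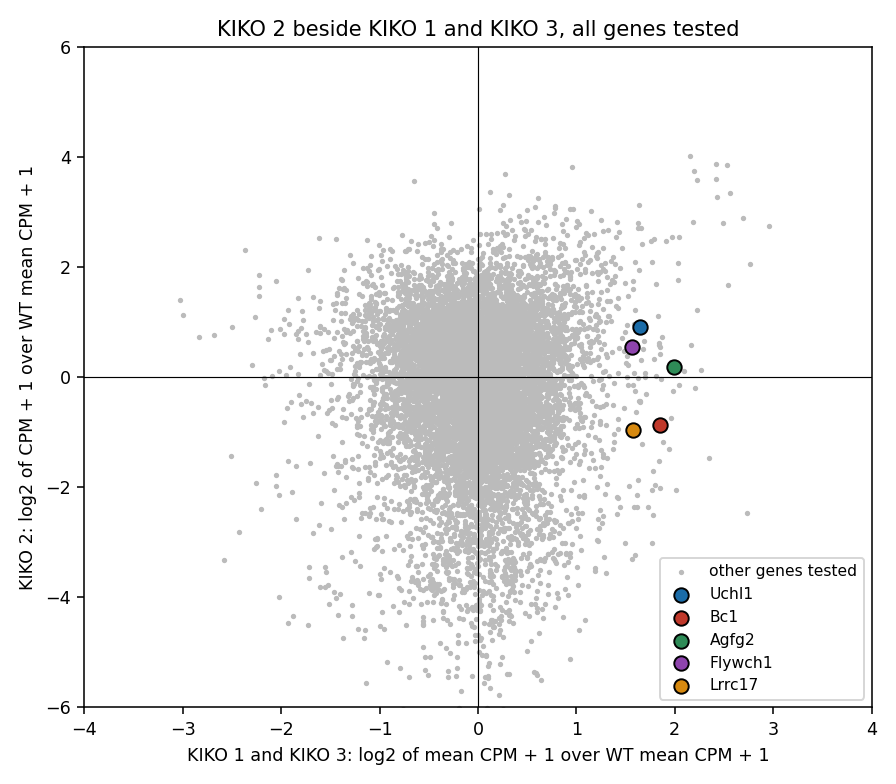
Each point is 1 of the 10889 genes tested, with the log2 ratio to the WT mean (CPM + 1) of the mean of KIKO replicates 1 and 3 on the x axis and of KIKO replicate 2 on the y axis. The 5 genes (coloured) lie to the right by the choice, while on the y axis Uchl1 and Flywch1 lie above 0, Agfg2 near 0 and Bc1 and Lrrc17 under 0.

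The lower of KIKO replicates 1 and 3 was between 1.8 times (Lrrc17) and 3.5 times (Agfg2) the higher WT library. By this ratio, Agfg2 ranked 23, Bc1 41, Uchl1 46, Flywch1 86 and Lrrc17 167 among the 10889 genes, so many genes that were not chosen had a wider gap. Without KIKO replicate 2, the Benjamini-Hochberg adjusted p of edgeR's quasi-likelihood test was 0.00838 for Bc1 and 0.0199 for each of the other four, values that chose them. The gene next in order was Rmst, a long non-coding RNA of neural cells, with an adjusted p of 0.0621, a log2 fold change of 2.23 (SE 0.46) and 12.9 and 12.1 CPM in WT against 40.2, 19.3 and 79.2 CPM in KIKO libraries. With all 5 libraries, edgeR gave 0 of 10889 genes (0%) with an adjusted p under 0.05, beside 131 (1.2%) with an unadjusted p under 0.05, 78 higher (0.716%) and 53 lower (0.487%) in KIKO libraries. DESeq2 gave 0 as well, beside 136 (1.25%) with an unadjusted p under 0.05, 96 higher (0.882%) and 40 lower (0.367%).

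**Figure D3:**
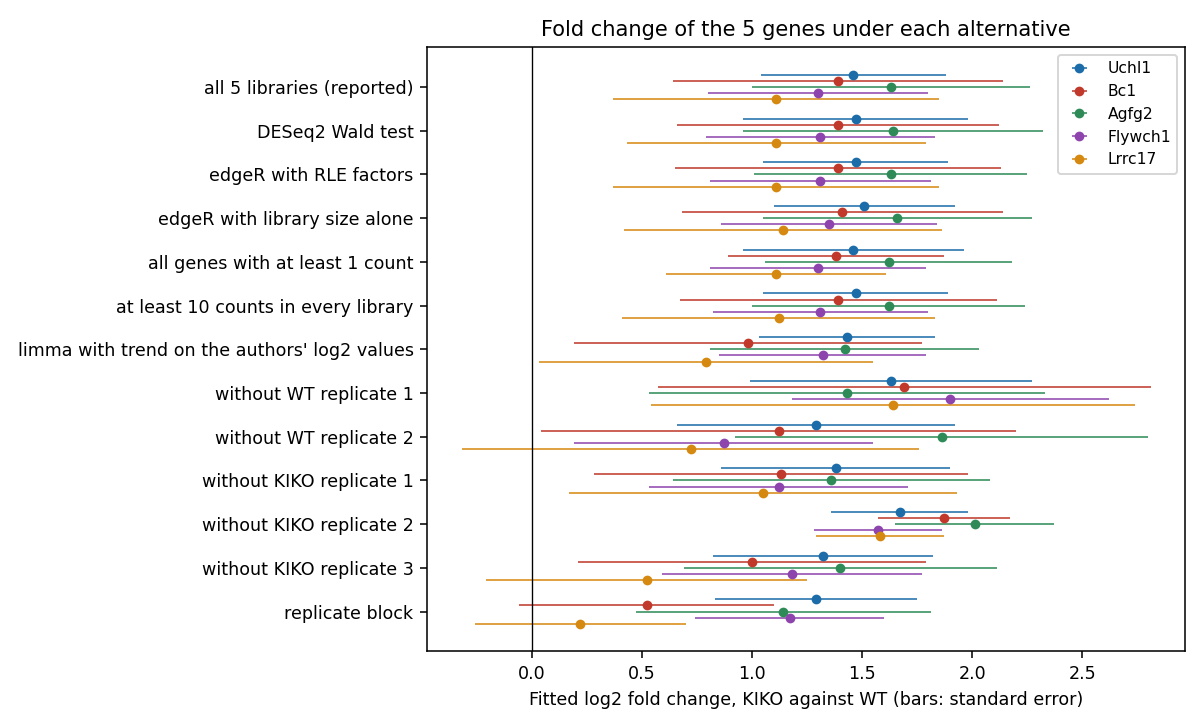
Fitted log2 fold change of KIKO against WT (x axis) of each of the 5 genes under the settings named on the y axis, with standard errors as bars. All points lie above 0, and those of Bc1 and Lrrc17 move the furthest, from 0.52 and 0.22 with the replicate number as a block to 1.87 for Bc1 without KIKO replicate 2 and 1.64 for Lrrc17 without WT replicate 1.

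Bc1 and Lrrc17 share sequence. Bc1 is the founder of the rodent ID repeats, which are copies of its start that lie in many genes. The whole Bc1 RNA of 168 bases is shown because its first part recurs in Lrrc17, with the core of the B box, an element inside RNA polymerase III genes, at bases 57 to 62 and its A run of 23 bases at 77 to 99 in capitals (GENCODE M21, GRCm38, plus strand).
Bc1: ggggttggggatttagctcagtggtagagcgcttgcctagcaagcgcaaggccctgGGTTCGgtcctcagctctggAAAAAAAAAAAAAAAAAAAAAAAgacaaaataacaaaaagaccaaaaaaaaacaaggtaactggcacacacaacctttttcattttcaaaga
A run of 82 bases, Bc1 bases 5 to 86, occurs without a difference in the Lrrc17 transcript at bases 1702 to 1783, on the same strand (chr5:21575452-21575533), after the coding sequence. The end of the shared run is shown for both genes, with letters that differ in capitals. The window covers chr7:144914536-144914565 in Bc1 and chr5:21575514-21575543 in Lrrc17, and 25 of its 30 letters are equal.
Bc1 bases 67 to 96: tcagctctggaaaaaaaaaaAaaaaAaAAA
Lrrc17 bases 1764 to 1793: tcagctctggaaaaaaaaaaCaaaaCaTTT
The longest A run of Lrrc17, 10 bases from transcript base 1774, lies in this window.

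The counts of the pair moved together. Counts of Lrrc17 were 6.44 and 5.05 times those of Bc1 in WT and 4, 5.64 and 5.51 times in KIKO replicates 1 to 3, ratios not scaled by length. Across the 5 libraries, r of log2 CPM was 0.981 for Bc1 and Lrrc17, the highest among the 10 pairs of the 5 genes. It was 0.95 for Uchl1 and Flywch1, and between 0.691 and 0.893 for the other pairs. These are descriptions over 5 libraries, which also share the depth, the TMM scaling and the choice of the genes. The sources used here do not say how reads that match several places were counted, and the part of the shared sequence in the counts of both genes was not tested.

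Copies of the start of Bc1 were also found in other genes. Over at least 60 of its first 75 bases, on the same strand and at 90% identity or more, 17 other genes matched, of which 11 were tested. Besides Lrrc17, the longest runs without a difference were 57 bases in Tatdn1, 45 in Cnot3, 43 in Sez6 and 43 in Supt7l. Cnot3, which encodes a subunit of the CCR4-NOT deadenylase, had 159 and 82.7 CPM in WT and 245, 40.2 and 249 CPM in KIKO libraries. Tatdn1 had 56.8 and 28.8 CPM in WT and 76.5, 51 and 97.4 CPM in KIKO libraries. Besides Lrrc17, KIKO replicates 1 and 3 lay above both WT libraries in 4 of the 10 tested genes, Cnot3, Tatdn1, Sez6 and Timm22, against 19.5% of all genes, and KIKO replicate 2 was then the lowest library in Cnot3 alone. The log2 fold change was 0.56 (SE 0.71) for Cnot3 and 0.81 (SE 0.48) for Tatdn1, and 1.03 for each without KIKO replicate 2. Supt7l had no such order, with 47.8 and 32.6 CPM in WT and 33.1, 63.4 and 29.4 CPM in KIKO libraries. The other 10 tested genes had log2 fold changes between -0.59 and 0.81, and each had an adjusted p of 1 (edgeR, Benjamini-Hochberg). Copies on the opposite strand, at the same limits, lay in 23 other genes, of which 7 were tested. Their levels were not compared here.

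**Figure D4:**
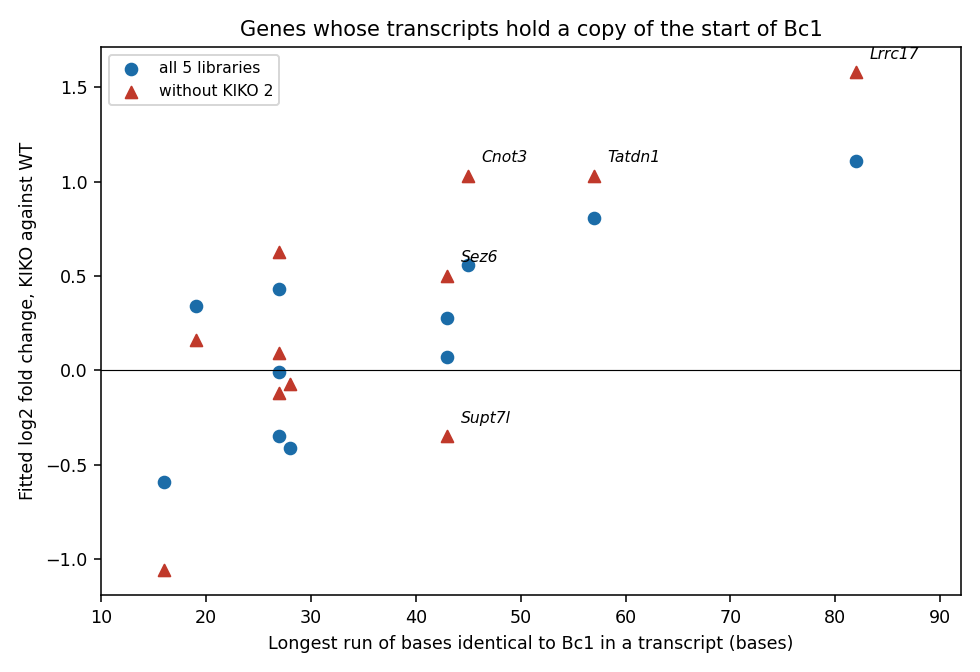
Fitted log2 fold change of KIKO against WT (y axis) of the 11 tested genes with a same-strand copy of the start of Bc1. The x axis gives the longest run of bases without a difference from Bc1. Circles are the fit with all 5 libraries, and triangles are the fit without KIKO replicate 2. Lrrc17, with 82 bases, lies at 1.11 and 1.58, a height that follows from the choice of the gene. Of the genes not chosen, Tatdn1, with 57 bases, lies at 0.81 and 1.03, and Supt7l, with 43 bases, at 0.07 and -0.35. St3gal1, with 16 bases, lies lowest, at -0.59 and -1.06. A relation between the axes was not tested.

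No other member shared such sequence with a tested gene. At 50 aligned bases or more and 90% identity or more, transcripts of Agfg2 matched no other gene, and those of Uchl1 and Flywch1 matched only their antisense partners Uchl1os and 9530082P21Rik. The exons of Uchl1 overlapped 295 bases of Uchl1os, those of Flywch1 overlapped 1071 bases of 9530082P21Rik, and those of Lrrc17 overlapped 161 bases of Fbxl13 on the other strand. Uchl1os had 1 count in KIKO replicate 3 and 0 in the others, Fbxl13 had 0 in each library, and 9530082P21Rik had 1 and 1 in WT and 5, 0 and 4 in KIKO libraries. The sample labels name a stranded library kit, whereas the study's methods name a different library service. The strand setting of the counting is not given in the sources used here. Whether reads of Flywch1 and its antisense gene were told apart within the shared bases, 1071 of the 4266 exonic bases of Flywch1, is therefore not known. Bc1 lies 463 bases before LTO1, which had 7 and 14 counts in WT and 14, 17 and 8 in KIKO libraries. LTO1 had a log2 fold change of 0.29 (SE 0.74, adjusted p = 1, edgeR).

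Long A runs marked Bc1 and Agfg2. The longest run was 23 bases in Bc1, a length that 256 of 10885 tested genes with a transcript reached (2.35%). In Agfg2 it was 20 bases at the very end of the transcript, which 404 genes reached (3.71%). Lrrc17 had a run of 10 bases (30.8%), and Uchl1 and Flywch1 had runs of 5 (93.2%). The other 402 tested genes with a run of 20 bases or more had a median log2 fold change of 0.06, against 0.02 over all genes, and of 0.14 against -0.01 without KIKO replicate 2. It was 0.00 over the 255 others with a run of at least 23 bases and -0.04 over the 3347 others with at least 10, and 0.08 and 0.06 without KIKO replicate 2.

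The promoters of the 5 genes, 300 bases each from RefSeq (GRCm38.p6), were compared, and each gene had at least 1. That the genes are high in KIKO replicates 1 and 3 comes from their choice. In KIKO replicate 2, only Uchl1 and Flywch1 lay above both WT libraries. CCAAT, the letters bound by NF-Y, occurred 4 times on both strands in Agfg2, as many as in 1.06% of 32851 promoters, once each in Bc1, Flywch1 and Lrrc17 and not in Uchl1, and 37.4% of promoters hold it. GGGCGG occurred 2 times each in Agfg2 and in Flywch1 and not in the other three (35.7% of promoters hold it). TATAAA occurred in Lrrc17 alone (13.6%). TTTAAATA occurred in Bc1 alone (1.81%). No motif was held by all 5. The windows run past the annotated start. For Agfg2, only 197 of the 300 bases lie before its outermost annotated start, with 2 of the 4 CCAAT matches. The bases before Agfg2 (chr5:137684807-137685003, minus strand) and before Bc1 (chr7:144914370-144914469, plus strand) are shown. They are those with the least common matches, and CCAAT and TTTAAATA are in capitals.
Agfg2: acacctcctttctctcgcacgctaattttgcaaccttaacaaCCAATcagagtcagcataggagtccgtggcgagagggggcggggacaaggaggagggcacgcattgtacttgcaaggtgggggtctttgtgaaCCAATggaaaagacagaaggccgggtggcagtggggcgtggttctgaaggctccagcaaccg
Bc1: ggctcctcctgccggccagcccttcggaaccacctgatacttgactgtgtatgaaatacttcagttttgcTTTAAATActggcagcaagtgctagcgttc
A match describes letters and does not show that a factor binds.

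Paralogs of the members did not show the same order. Uchl3, a ubiquitin hydrolase like Uchl1, had 24 and 38 counts in WT and 23, 33 and 6 in KIKO replicates 1 to 3, with a log2 fold change of -0.65 (SE 0.65), and -1.09 without KIKO replicate 2. Uchl5, a ubiquitin hydrolase of the proteasome, had 17 and 36 counts in WT and 30, 143 and 12 in KIKO libraries. Its highest value was in KIKO replicate 2, and its log2 fold change was 1.14 (SE 0.88), and -0.30 without that library. Agfg1 had 53 and 105 counts in WT and 68, 247 and 62 in KIKO libraries, again with the highest value in KIKO replicate 2. Its log2 fold change was 0.63 (SE 0.60), and -0.20 without that library. Bap1, a nuclear ubiquitin hydrolase, had a log2 fold change of -0.42 (SE 0.66), and -0.57 without KIKO replicate 2. Flywch2, which lies 5314 bases from Flywch1, had -0.23 (SE 0.75), and -0.21 without that library. Each of these paralogs had an adjusted p of 1 (edgeR, Benjamini-Hochberg).

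Other genes of the members' pathways were read from 9 lists, of which 170 genes could be tested. Of these, 0 had both an unadjusted p under 0.05 and a log2 fold change over 0.75 in size in edgeR's fit, against 131 of all genes (1.2%), and 0 had an adjusted p under 0.05. The median log2 fold change was -0.07 over 13 genes of ubiquitin hydrolysis and supply, 0.00 over 31 proteasome subunits and -0.04 over 23 proteins that bind Bc1 or start translation. It was -0.17 over 28 genes of the RNA polymerase III machinery, 0.09 over 27 Arf and ArfGAP genes, -0.06 over 28 genes of the Wnt pathway, -0.21 over 10 regulators of osteoclasts and -0.08 over 10 small leucine-rich repeat proteins, against 0.02 over all genes. Of the RNA polymerase III transcripts, Rmrp was the other one listed, with 4 counts at most, and was not tested.

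**Figure D5:**
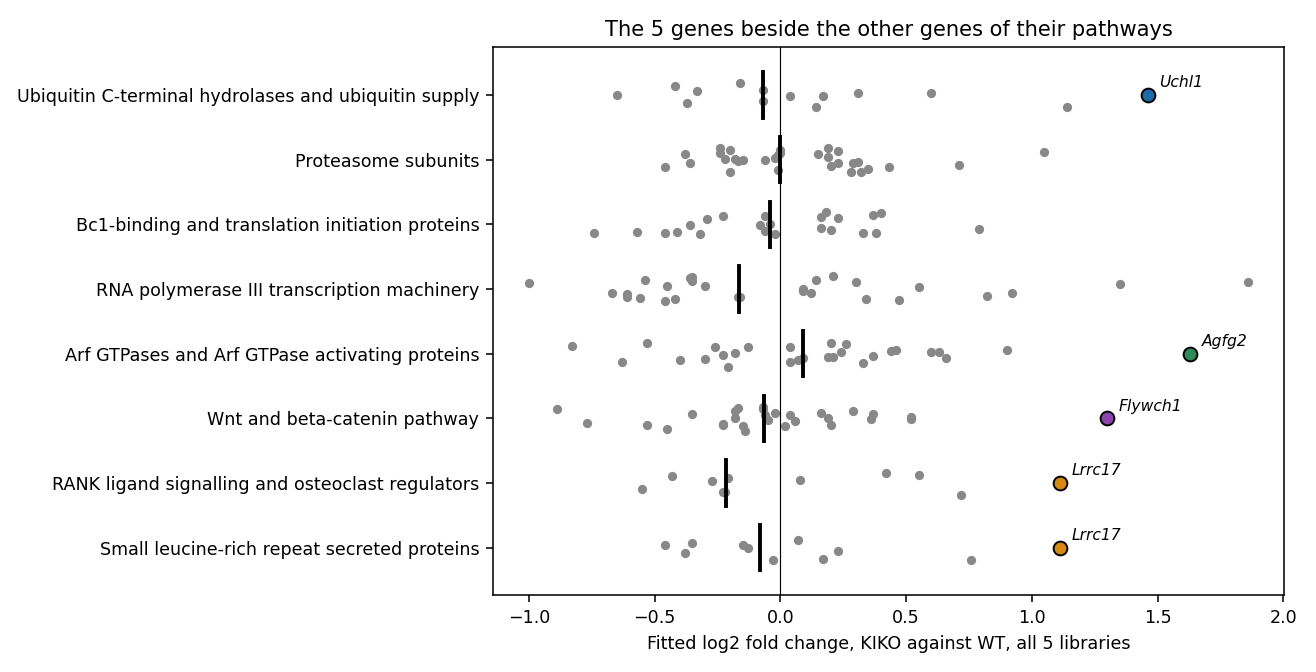
Fitted log2 fold change of KIKO against WT with all 5 libraries (x axis) of the tested genes of 8 pathway lists (y axis), with grey points for other genes, coloured points for the members and black bars for the median of the others. The members lie between 1.11 and 1.63, and the medians of the other genes between -0.21 and 0.09.

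Without KIKO replicate 2, 167 of these genes were tested and 6 passed the thresholds, all lower in KIKO replicates 1 and 3 and none higher. Of all genes, 669 passed (6.45%), 305 higher (2.94%) and 364 lower (3.51%). The share of pathway genes called lower was thus near that of all genes. Rps27a, which encodes ubiquitin fused to a ribosomal protein, had 234 and 374 CPM in WT and 173, 399 and 133 CPM in KIKO libraries. Its log2 fold change was -1.0 (SE 0.27, adjusted p = 0.243, edgeR). Csf1, the growth factor of macrophages and osteoclasts, had 157 and 175 CPM in WT and 88.3, 199 and 52.8 CPM in KIKO libraries, with a log2 fold change of -1.23 (SE 0.30, adjusted p = 0.209, edgeR). For both, KIKO replicate 2 lay above the WT libraries. The median of the lists then lay between -0.44, for the regulators of osteoclasts, and 0.10, for ubiquitin hydrolysis and supply, against -0.01 over all genes. The other genes past the thresholds were Otub2 (-1.81), Eif4b (-0.95), Arap1 (-1.15) and Fzd6 (-2.03), with adjusted p between 0.51 and 0.581 in edgeR's fit.

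Other measures moved with the same libraries. Gm42418, a locus that collects reads of ribosomal RNA, took 5.77% and 4.03% of the counts in WT and 7.78%, 0.344% and 8.47% in KIKO replicates 1 to 3, which is the order of Bc1 and Lrrc17. Across the 5 libraries, r of its log2 CPM was 0.79 with Lrrc17, 0.78 with Bc1, 0.49 with Agfg2, 0.30 with Flywch1 and 0.15 with Uchl1. The share of mitochondrial genes ran the other way, with 4.32% and 7.63% in WT and 3.8%, 8.77% and 4.13% in KIKO libraries. The part of these shares in the levels of the 5 genes was not tested.

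As Uchl1 and Bc1 are known from neurons, neuronal markers are given beside them. The 18 pan-neuronal markers summed to 7269 and 4729 CPM in WT and 6578, 3816 and 6856 CPM in KIKO replicates 1 to 3, so that KIKO replicates 1 and 3 lay within the range of WT. The 3 highest of them were Rbfox3, with 1462 and 805 CPM in WT and 1339, 422 and 1479 CPM in KIKO libraries, Celf4 and Snap25. Celf4 had 1018 and 744 CPM in WT and 790.2, 576.5 and 755 CPM in KIKO libraries, and Snap25 had 729 and 592 CPM in WT and 750.0, 576.5 and 743 CPM in KIKO libraries. The 8 markers of Purkinje neurons summed to 479 and 346 CPM in WT and 720.0, 429 and 615 CPM in KIKO libraries. KIKO replicates 1 and 3 lay above both WT libraries, an order that 19.5% of single genes tested had. Of the 3 highest of these, Itpr1 had 199 and 156 CPM in WT and 271, 156 and 263 CPM in KIKO libraries, and Car8 had 96.6 and 30.3 CPM in WT and 116, 42.5 and 128 CPM in KIKO libraries. Pcp4 had 70.7 and 48.5 CPM in WT and 67.8, 60.3 and 58.9 CPM in KIKO libraries, all within the range of WT. With all 5 libraries, 1 of 18 pan-neuronal and 0 of 8 Purkinje markers passed the thresholds as higher, against 0.716% of all genes. Without KIKO replicate 2, 4 of 18 and 3 of 8 did, against 2.94% of all genes. The median log2 fold change was 0.00 over pan-neuronal, 0.58 over Purkinje and -0.12 over granule neuron markers, against 0.02 over all genes. Without KIKO replicate 2, these medians were 0.25, 0.75 and 0.01, against -0.01 over all genes. Markers of granule neurons summed to between 1930 and 2611 CPM in WT and between 1742 and 2440 CPM in KIKO libraries. The part of neuronal RNA in the levels of the 5 genes was not tested.

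Markers of oligodendrocytes and choroid plexus followed another order. Those of oligodendrocytes summed to 5226 and 11934 CPM in WT and 4598, 19023 and 5906 CPM in KIKO replicates 1 to 3. Those of the choroid plexus summed to 12877 and 13975 CPM in WT and 9490, 15637 and 7894 CPM in KIKO libraries. KIKO replicate 2 was the highest library for both, and KIKO replicates 1 and 3 were the lowest for the choroid plexus. With all 5 libraries, 0 of 7 oligodendrocyte and 0 of 7 choroid plexus markers passed the thresholds. Without KIKO replicate 2, 2 of 7 and 3 of 7 passed as lower, against 3.51% of all genes. Markers of astrocytes and Bergmann glia summed to 293 and 520.3 CPM in WT and 493, 520.1 and 435 CPM in KIKO libraries. Of these, 1 of 7 passed as higher in both fits. For fibroblasts, all KIKO sums, between 81.2 and 165 CPM, lay above those of WT, between 77.4 and 80.7 CPM. The lowest KIKO sum was just above the highest WT sum, and 8.2% of single genes tested had such an order. With all 5 libraries, 0 of 3 tested fibroblast markers passed the thresholds. The log2 fold change was -0.15 for Dcn, the highest of them, 0.51 for Col1a2 and 2.08 for Col1a1.

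Genes whose levels ran most like each member over the 5 libraries were named by Pearson's r of log2 CPM, with no test. For Uchl1 they were Lig1 (r = 0.997), Bgn (0.997) and Med12l (0.996). For Flywch1 they were Zfp786 (0.999), Rtn1 (0.994) and Gpr162 (0.994). Zfp786 rested on few counts, with 4.98 and 1.52 CPM in WT, the second under the level of 3 counts. Rtn1 had 387.5 and 294 CPM in WT and 584, 440.5 and 572 CPM in KIKO libraries. For Agfg2 they were Zdhhc18 (0.996), Nrbp1 (0.994) and Slc1a6 (0.994), a glutamate transporter with 4.98 and 6.07 CPM in WT and 22.9, 7.73 and 22.3 CPM in KIKO libraries. Bc1 was most like A330102I10Rik (0.997), Clk1 (0.996) and Sdccag8 (0.995), and A330102I10Rik had 9.96 and 6.83 CPM in WT and 35.5, 4.64 and 35.5 CPM in KIKO libraries. Lrrc17 was most like Fmr1 (0.997), Sh3gl2 (0.996) and Syn2 (0.994), all with KIKO replicate 3 highest. Of the 10889 genes tested, an r above 0.95 was reached by 46 for Uchl1, 55 for Flywch1, 47 for Agfg2, 128 for Bc1 and 141 for Lrrc17. Each was a small share of the genes tested, and each r rests on 5 libraries only.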

How the data were processed

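Bulk RNA sequencing libraries of cerebellum were analysed for 2 WT and 3 KIKO samples. Per the study's methods, reads were trimmed with Trimmomatic and aligned to mm10 with HISAT2, and per the submitters' processing notes and the methods they were counted with featureCounts and normalized with DESeq2. The annotation, the strand setting and the handling of reads with several matches are not given in the sources used here. The methods and the labels name different kits for RNA and libraries. The authors deposited unnormalized integer counts for each gene. They also deposited log2 values, the log2 of 1 plus the count over a size factor, with factors between 0.8772 and 1.19. This relation returned 100% of the counts within 0.01. In each table, 2 columns named for butyrate match no sample label and were not used. WT replicate 3 was not analysed here.

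The 5 genes, the gene lists and the tests were chosen with earlier results of these data known. Symbols from GENCODE M21 matched 30934 of 31053 gene identifiers (99.6%). The analysis used edgeR 4.0.16 in R 4.3.3. In it, filterByExpr (minimum count 10, minimum total 15) kept 10889 genes, libraries were scaled by TMM, and genotypes were compared by the two-sided quasi-likelihood test with Benjamini-Hochberg adjustment over all genes tested. Calls were counted at an adjusted p under 0.05 and, separately, at an unadjusted p under 0.05 with a log2 fold change over 0.75 in size. The SE given for edgeR was the size of the log2 fold change over the square root of that test's F statistic. For the 5 genes, it thus carries the choice as well. Those of DESeq2 and limma came from their own fits. Log2 CPM for correlations had a prior count of 2, and the ratio plot used CPM + 1. Transcripts were compared with Bc1 by blastn. Alternatives were DESeq2 1.42.0, RLE factors, library size alone, looser and stricter filters, limma 3.58.1 on the log2 values, leaving out each library, and the replicate number as a block.

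Genes were named by rule: the 5 genes, for each the 3 tested genes of highest r, genes with overlapping exons, the paralogs Uchl3, Uchl5, Bap1, Agfg1 and Flywch2, up to 3 genes per pathway list past the thresholds, and the 3 highest markers per cell type, of which those beside a result are printed. Rmst, LTO1, Gm42418, Rmrp and the genes with a copy of Bc1 were named after their values were seen. The libraries held between 1013107 and 1351339 counts, and 3 counts were between 2.22 and 2.96 CPM. The check of the targeted gene is not reported here.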

Additional observations from a re-analysis of the deposited data

How the results depend on the processing

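Under the 12 alternatives, the log2 fold change of each of the 5 genes was above 0, a direction that follows from their choice. It ran from 1.29 to 1.67 for Uchl1, 0.52 to 1.87 for Bc1, 1.14 to 2.01 for Agfg2, 0.87 to 1.90 for Flywch1 and 0.22 to 1.64 for Lrrc17. Each moved by less than its SD of log2 CPM within genotypes, pooled over both. With KIKO replicate 2 included, this SD was 1.29 for Bc1 and 1.26 for Lrrc17. That limit is wide beside their fitted 1.39 and 1.11, so it does not show that they were stable. The low ends of Bc1, Agfg2 and Lrrc17 came with the replicate number as a block (Uchl1 1.29, Flywch1 1.17). Same-numbered libraries deviated together with r of 0.18 and 0.239. The deviations of the 2 WT libraries mirror each other (r = -1), and those of KIKO replicates 1 and 2 ran opposite (r = -0.822). The values are therefore not 2 separate checks. Only 2 numbers are shared, KIKO replicate 3 has no partner, and WT replicate 1 and KIKO replicate 3 had 0.218, so the numbers do not show a pairing. Genes past the thresholds numbered 131 (78 higher, 53 lower), 136 with DESeq2 (96 and 40), 137 with library size alone (94 and 43), 271 with the block (109 and 162) and 383 with all genes of at least 1 count (256 and 127), and from 56 without WT replicate 1 to 669 without KIKO replicate 2. Adjusted p under 0.05 was reached by 0 genes, by 1 with all genes of at least 1 count, and by 0 to 5 on leaving out a library, 5 without KIKO replicate 2. Of the pathway genes, 0 passed, 2 with all genes of at least 1 count, 3 with the block, and 0 to 6 on leaving out a library (1 without WT replicate 1, 1 without KIKO replicate 1, 6 without KIKO replicate 2). The cause was not tested. The common coefficient of variation between replicates was 0.468, and 0.238 without KIKO replicate 2. With 2 WT libraries and at most 34 counts of Agfg2 in them, the levels in WT rest on few counts.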
